A study of Homo sapiens with 9 samples.

Results

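FOS, FOSB, FOSL2, JUN, JUNB and JUND encode subunits of the transcription factor AP-1, and ATF3, EGR1, IER2 and IER3 are immediate early genes that are commonly induced beside them. These 10 genes were chosen by name, with no threshold on their values but with earlier results of these data known, and all 10 were found among the 27673 genes of the count table. RNA was measured in A498 cells, an established clear cell renal cell carcinoma (ccRCC) line that lacks functional VHL, the protein that marks HIF2α for degradation. HIF2α protein was not measured in these libraries. Lentivirus made from PLKO.1 vectors brought in a short hairpin RNA (shRNA) that targets ARNT in the shARNT group and BMAL1 in the shBMAL1 group, while the shControl group received a control hairpin, and all lines were selected and then kept in puromycin. There were 3 libraries in each group, all from cells of the same line that carried no other engineered change. The samples were deposited as biological replicates, but separate infections were not described, so p-values measure the spread between these libraries, which may be partly technical. The labels name the target and not the hairpin, and the methods list an independent BMAL1 hairpin beside the main one. Which of them these libraries carried was not stated in the sources used here. An effect of the hairpin itself therefore cannot be told apart from the loss of its target.

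AP-1 is a dimer of a JUN protein with a FOS protein, another JUN protein or a related partner such as ATF3, and it binds a short palindromic DNA site. Immediate early genes are transcribed within minutes of a growth factor or stress signal from factors already present in the cell, among them SRF with its partners and kinase-activated CREB and ATF proteins, and many of their transcripts are short-lived. ARNT is the usual partner of HIF2α, and BMAL1, encoded by ARNTL, is its circadian homolog that pairs with CLOCK. The question asked of each comparison was which transcripts change when ARNT or BMAL1 is depleted.

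Library totals ranged from 35269851 to 36099075 counts. ARNT was 50.5 CPM (counts scaled to a common library size) in shControl, 32.3 CPM in shBMAL1 and 9.47 CPM in shARNT, a log2 fold change of -2.41 in shARNT. ARNTL was 16.3 CPM in shControl, 5.02 CPM in shBMAL1 and 23.8 CPM in shARNT, a log2 fold change of -1.70 in shBMAL1. The libraries therefore carried the depletion named on their labels, and ARNT mRNA was also lower in shBMAL1. All 8 kidney epithelial and ccRCC markers were above 1 CPM in each group, but their summed level was 9130 to 9210 CPM for shControl, 7480 to 7840 for shBMAL1 and 2280 to 2440 for shARNT. The 5 leukocyte markers summed to 0.348 to 0.882 CPM over the 9 libraries, with CD3E at 0 in all of them, and the 4 endothelial markers summed to 0 to 0.323 CPM. The sum was carried mainly by VIM (5970 CPM in shControl and 812 in shARNT) and CA12 (1190 and 132), and the markers did not move together: in shARNT PAX8 was higher, 6 were lower and KRT18 was not called, and in shBMAL1 PAX8, CA12 and NNMT were higher and 5 were lower. The part of the kidney marker difference in the results was not tested. When library size replaced the trimmed-mean scaling (TMM) used here, all genes together shifted upwards, with a median log2 fold change 0.24 higher in shARNT and 0.05 higher in shBMAL1.

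Promoter sequence is shown for the members that fell most in shARNT, EGR1 and JUN, and for those that rose most, FOSB and IER2, because the depleted proteins act at DNA. Each is the 250 bases before the annotated start, 5′ to 3′ on the strand of the gene, from RefSeq on GRCh38.p14. Capitals mark CArG boxes (the site of SRF), an EGR site, and the hypoxia response element (HRE) core letters ACGTG or GCGTG on either strand. The windows lie at chr5:138465229-138465478 on the plus strand for EGR1, chr1:58784048-58784297 on the minus strand for JUN, chr19:45467746-45467995 on the plus strand for FOSB and chr19:13150161-13150410 on the plus strand for IER2.
EGR1: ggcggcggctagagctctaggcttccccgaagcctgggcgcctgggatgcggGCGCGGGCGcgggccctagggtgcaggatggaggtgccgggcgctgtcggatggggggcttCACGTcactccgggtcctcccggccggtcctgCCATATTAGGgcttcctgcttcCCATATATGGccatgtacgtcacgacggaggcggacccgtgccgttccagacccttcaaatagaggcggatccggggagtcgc
JUN: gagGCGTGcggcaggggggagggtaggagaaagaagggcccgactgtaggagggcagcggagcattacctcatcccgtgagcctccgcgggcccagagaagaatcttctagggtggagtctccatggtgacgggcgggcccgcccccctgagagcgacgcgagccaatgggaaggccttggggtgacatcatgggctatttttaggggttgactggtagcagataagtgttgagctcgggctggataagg
FOSB: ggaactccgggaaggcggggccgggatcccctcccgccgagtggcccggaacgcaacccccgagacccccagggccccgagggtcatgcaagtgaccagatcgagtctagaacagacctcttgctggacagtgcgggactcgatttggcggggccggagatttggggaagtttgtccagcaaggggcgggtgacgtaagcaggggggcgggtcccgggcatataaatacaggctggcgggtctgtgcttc
IER2: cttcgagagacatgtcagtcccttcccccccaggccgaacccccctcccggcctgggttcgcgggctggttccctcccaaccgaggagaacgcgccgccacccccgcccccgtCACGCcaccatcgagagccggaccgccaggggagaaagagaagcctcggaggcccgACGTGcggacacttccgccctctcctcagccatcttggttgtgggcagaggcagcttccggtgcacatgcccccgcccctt

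In all, 7 motifs were searched on both strands in windows of 300 bases, from 250 before to 50 after the start, in 35116 RefSeq promoters. FOS, FOSB, FOSL2, JUN, JUNB, JUND, ATF3, EGR1 and IER2 had an entry, and ATF3 had 2. The E-box CACGTG, the letters read by CLOCK with BMAL1, stood in 7.26% of all promoters and in 0 of the 9 members' windows. ACGTG stood in 21.4% of all promoters and in 3 of 9 members, GCGTG in 36.5% and in 5 of 9, and either of these HRE cores in 48.4% and in 7 of 9. Every E-box also holds ACGTG, so these searches overlap. The CArG box stood in 1.29% of all promoters and, among the members, in EGR1, where boxes began 105 and 83 bases before the start. The EGR site GCGNGGGCG stood in 9.43% of all promoters and in EGR1, 198 bases before its start. The AP-1 site TGANTCA stood in 7.71% of all promoters and in FOSL2, 5 bases after its start, and the cAMP response element (CRE) TGACGTCA stood in 1.85% and in JUND. The EGR1, JUN and IER2 sequences printed above each hold at least 1 HRE core. The printed FOSB stretch holds none of the searched letters, but its window has GCGTG on the opposite strand 36 bases after the start. Neither HRE core stood in the JUND or ATF3 windows. A match is a description of letters in this window, and it does not show binding.

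**Figure D1:**
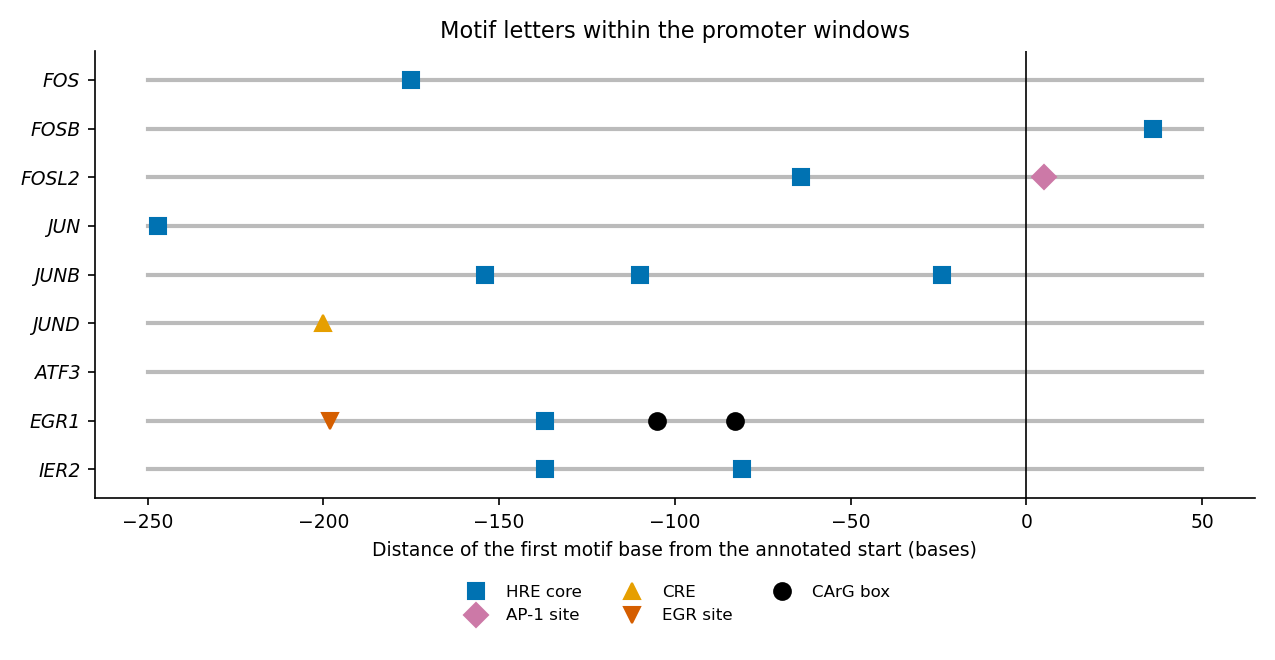
Positions of the searched motif letters (symbols) in the promoter windows of the 9 genes with an entry, plotted as the distance in bases of the first motif base from the annotated start (vertical line). HRE core letters stand in 7 of the 9 windows, and both CArG boxes stand in EGR1.

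In shARNT most of the 10 genes were called, in both directions, as were most of all tested genes. In shARNT against shControl, 9 of 10 members passed the test at an adjusted p under 0.1, with FOSB, FOSL2, JUND and IER2 higher and FOS, JUN, JUNB, EGR1 and IER3 lower. ATF3 did not pass. This share has to be read against a background in which 81.8% of the 15551 tested genes passed, 40.5% higher and 41.3% lower. Of all calls in this contrast 49.6% were higher, and 60.5% with library size alone. All 9 called members had groups that did not overlap in CPM, as did 79.8% of all tested genes. The median absolute log2 fold change was 0.89 for the members and 0.66 for all tested genes. In shBMAL1 against shControl, 6 of 10 members passed, with FOS, FOSB and ATF3 higher and JUN, EGR1 and IER3 lower, where 63.3% of all tested genes passed, 31.9% higher and 31.5% lower. Their median absolute log2 fold change was 0.13, against 0.32 for all tested genes. The groups did not overlap for 5 members, which were FOS, FOSB, FOSL2, JUN and ATF3, and for 62.2% of all tested genes. Without shControl replicate 1, only the 3 higher members still passed in shBMAL1, and the log2 fold change was -0.07 for JUN, -0.27 for EGR1 and -0.14 for IER3. With a minimum fold change of 1.5 in the test, 5 members passed in shARNT (IER2 higher, and FOS, JUN, EGR1 and IER3 lower), beside 44.8% of all tested genes. At that setting 0 members passed in shBMAL1, beside 13.6% of all tested genes, and there FOSB alone had an unadjusted p under 0.05 by edgeR (glmTreat) and DESeq2 without a minimum fold called 5.

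**Figure D2:**
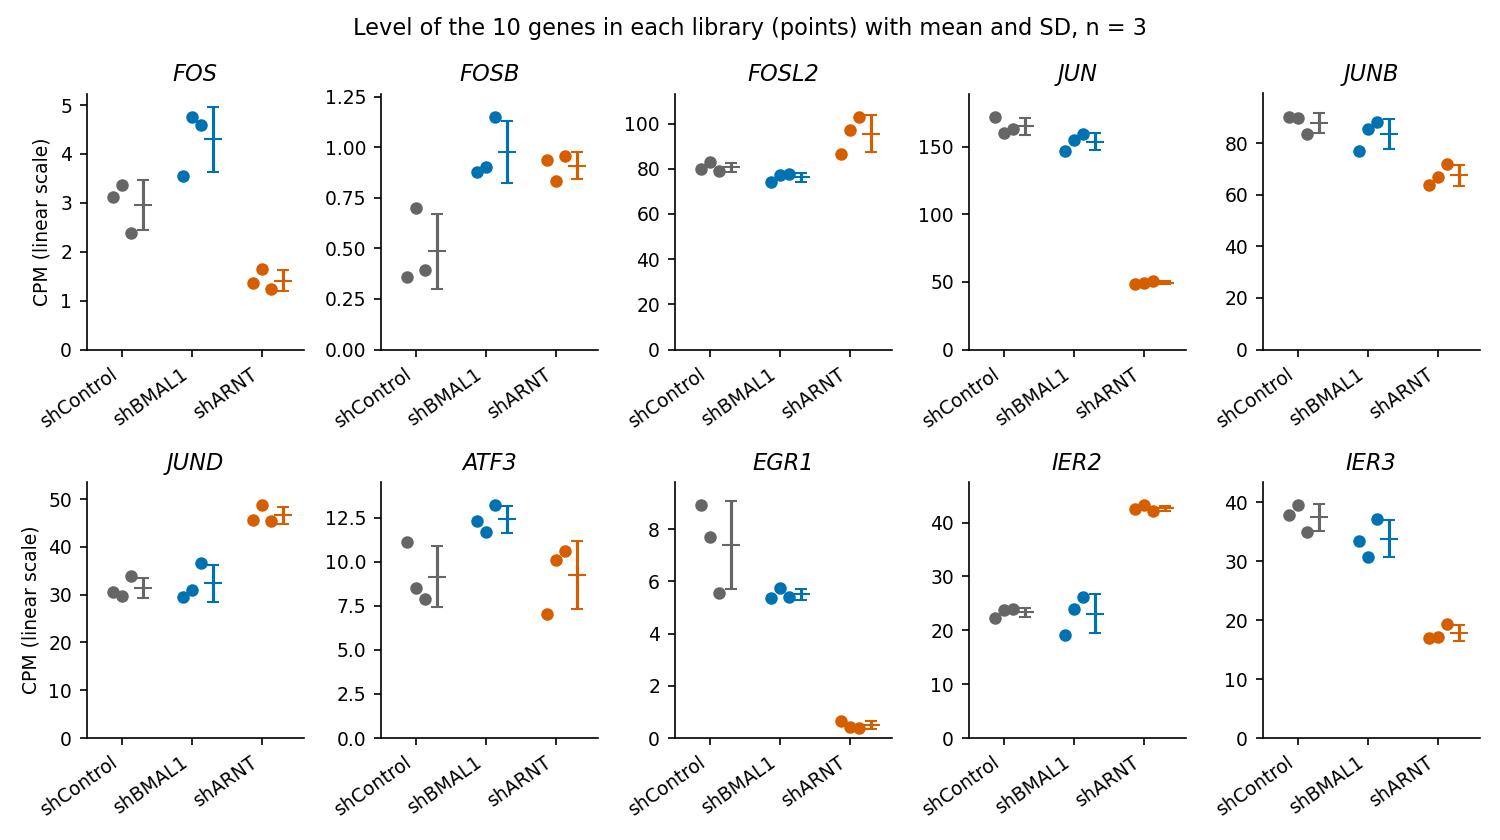
Level of each gene in every library (points, CPM on a linear axis from 0), with the group mean and SD beside them, for shControl, shBMAL1 and shARNT (n = 3 each). JUN, EGR1 and IER3 in shARNT lie far below both other groups, IER2 and JUND lie above them, and FOS is highest in shBMAL1 and lowest in shARNT.

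The JUN family diverged in shARNT. JUN, the founding AP-1 subunit and itself a strong activator in dimers with FOS proteins, had 5713, 5264 and 5374 counts in the 3 shControl libraries, 5016, 5325 and 5401 in shBMAL1 and 1908, 1940 and 2012 in shARNT. Every shARNT library was below every other library. The means were 165 ± 6.11 CPM in shControl, 153 ± 6.14 CPM in shBMAL1 and 49.3 ± 1.28 CPM in shARNT (SD, n = 3). JUN changed in shARNT by -1.74 in log2 units (SE 0.0462, adjusted p = 6.82e-18) and in shBMAL1 by -0.10 (SE 0.0438, adjusted p = 0.050), by the quasi-likelihood test of edgeR with Benjamini-Hochberg adjustment, which gave all adjusted p-values below. The small difference in shBMAL1 lost its call without shControl replicate 1 or shBMAL1 replicate 1, where it was -0.07, and with library size alone, where it was -0.06.

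JUNB is a JUN relative that often restrains transcription by JUN. It had 3004, 2961 and 2754 counts in shControl, 2630, 2940 and 2992 in shBMAL1 and 2522, 2646 and 2855 in shARNT. Relative to the scaled libraries these were 87.8 ± 3.88, 83.4 ± 5.77 and 67.5 ± 4.16 CPM (SD, n = 3), and the shARNT group did not overlap shControl. In shARNT JUNB decreased by 0.38 in log2 units (SE 0.0572, adjusted p = 4.77e-06), or decreased by 0.14 with library size alone. In shBMAL1 its log2 fold change was -0.07 (adjusted p = 0.276), with overlapping groups.

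JUND is the family member usually kept at a steady level in resting cells. Its counts were 1020, 981 and 1117 in shControl, 1007, 1063 and 1248 in shBMAL1 and 1807, 1926 and 1803 in shARNT. All 3 shARNT libraries stood above the other 6. The means were 31.4 ± 2.12, 32.3 ± 3.84 and 46.6 ± 1.83 CPM (SD, n = 3). JUND rose in shARNT by 0.57 in log2 units (SE 0.073, adjusted p = 5.59e-07). Its value in shBMAL1 was 0.04 (adjusted p = 0.66), and -0.06 without shBMAL1 replicate 3.

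Among the FOS family, FOS moved in opposite directions in the 2 depletions. FOS, the partner of JUN in the classical inducible dimer, had 104, 111 and 79 counts in shControl, 121, 164 and 156 in shBMAL1 and 54, 65 and 49 in shARNT. The 3 groups did not overlap. The means were 2.96 ± 0.51 CPM in shControl, 4.30 ± 0.661 CPM in shBMAL1 and 1.41 ± 0.209 CPM in shARNT (SD, n = 3). The log2 fold change was -1.07 in shARNT (SE 0.197, adjusted p = 5.6e-05) and 0.54 in shBMAL1 (SE 0.178, adjusted p = 0.0142). FOS was the 1 member of the 10 called in opposite directions, and its level was low in all 9 libraries.

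FOSB, which gives rise to full-length and truncated AP-1 subunits, was the least abundant member in shControl and rose in both depletions. Its counts were 12, 23 and 13 in shControl, 30, 31 and 39 in shBMAL1 and 37, 33 and 38 in shARNT. Every depleted library was above every shControl library. The log2 fold change was 0.90 in shARNT (SE 0.325, adjusted p = 0.0159) and 1.00 in shBMAL1 (SE 0.327, adjusted p = 0.0126). The standard errors were the largest of the 10 genes, at means of 0.484 ± 0.186, 0.975 ± 0.149 and 0.909 ± 0.0654 CPM (SD, n = 3) in shControl, shBMAL1 and shARNT.

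FOSL2 encodes FRA2, a FOS relative without the strong activation domain of FOS. Its counts were 2665, 2730 and 2609 in shControl, 2530, 2661 and 2639 in shBMAL1 and 3429, 3836 and 4094 in shARNT, with means of 80.7 ± 2.04, 76.3 ± 1.98 and 95.6 ± 8.38 CPM (SD, n = 3). The 3 shARNT libraries were above the other 6. FOSL2 rose in shARNT by 0.24 in log2 units (SE 0.0549, adjusted p = 0.000438), and by 0.48 with library size alone. In shBMAL1 the value was -0.08 (adjusted p = 0.229).

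ATF3 encodes a stress-induced partner of JUN proteins that often represses transcription. It had 370, 280 and 260 counts in shControl, 421, 402 and 449 in shBMAL1 and 279, 399 and 419 in shARNT. The shBMAL1 libraries were above all shControl libraries, whereas the shARNT libraries spread across the shControl range. ATF3 rose in shBMAL1 by 0.44 in log2 units (SE 0.139, adjusted p = 0.0111), with means of 9.16 ± 1.72 CPM in shControl and 12.4 ± 0.769 CPM in shBMAL1 (SD, n = 3). In shARNT it was 9.23 ± 1.91 CPM (SD, n = 3), at a log2 difference of 0.01 (SE 0.14, adjusted p = 0.951). That value changed sign without shControl replicate 2 (-0.04) or 3 (-0.09) and without shARNT replicate 2 (-0.06) or 3 (-0.10).

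EGR1, a zinc finger factor induced by growth factor signalling through ERK and SRF, fell most. It had 297, 253 and 184 counts in shControl, 184, 198 and 184 in shBMAL1 and 26, 17 and 15 in shARNT. The shARNT libraries were far below all others, and the lowest shControl library equalled 2 of the shBMAL1 libraries in counts. The means were 7.39 ± 1.69, 5.51 ± 0.204 and 0.488 ± 0.148 CPM (SD, n = 3) in shControl, shBMAL1 and shARNT. The log2 fold change was -3.91 in shARNT (SE 0.218, adjusted p = 1.23e-12). In shBMAL1 it was -0.42 (SE 0.16, adjusted p = 0.0289), and without shControl replicate 1 it was -0.27 (adjusted p = 0.194).

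IER2, a nuclear immediate early protein, moved the other way. Its counts were 742, 780 and 790 in shControl, 655, 822 and 891 in shBMAL1 and 1685, 1709 and 1674 in shARNT. The shARNT libraries were nearly alike and all above the other 6. The means were 23.3 ± 0.883, 23.1 ± 3.59 and 42.6 ± 0.524 CPM (SD, n = 3), and IER2 rose in shARNT by 0.87 in log2 units (SE 0.0806, adjusted p = 4.25e-09). In shBMAL1 the value was -0.01 (adjusted p = 0.899), and it was 0.10 without shBMAL1 replicate 1.

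IER3, an early response gene that influences cell survival under stress, had 1263, 1301 and 1152 counts in shControl, 1146, 1061 and 1262 in shBMAL1 and 673, 676 and 769 in shARNT. The shARNT libraries were below all others, while shControl and shBMAL1 overlapped. The means were 37.4 ± 2.36, 33.8 ± 3.16 and 17.8 ± 1.35 CPM (SD, n = 3). In shARNT IER3 decreased by 1.07 in log2 units (SE 0.0763, adjusted p = 6.93e-11). In shBMAL1 the log2 fold change of -0.15 (SE 0.0735, adjusted p = 0.0937) was close to the threshold, and the call was lost without shControl replicate 1 (-0.14) or 2 (-0.11) and without shBMAL1 replicate 1 (-0.14) or 2 (-0.09).

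**Figure D3:**
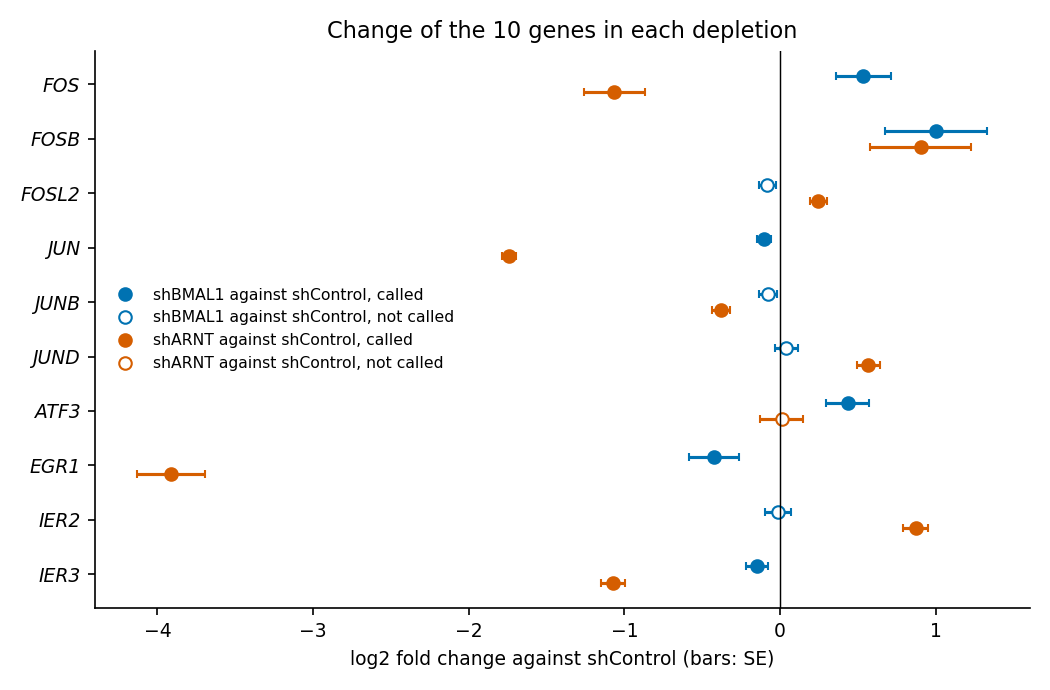
Log2 fold change against shControl for each gene in shBMAL1 and shARNT, with bars of 1 SE, filled symbols for called genes and open symbols for genes not called. The shARNT values run from -3.91 for EGR1 to 0.90 for FOSB, and the shBMAL1 values from -0.42 for EGR1 to 1.00 for FOSB.

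The 2 depletions share their shControl libraries, so their difference was tested directly, as shARNT against shBMAL1. In this contrast 9 of 10 members passed, 3 higher and 6 lower in shARNT, where 81.2% of all tested genes passed, 40.1% higher and 41.1% lower. With a minimum fold change of 1.5, 5 members and 43.9% of all tested genes passed. Groups of 9 members and of 79.6% of all tested genes did not overlap. FOSL2 (log2 difference 0.33), JUND (0.53) and IER2 (0.89) were higher in shARNT. FOS (-1.60), JUN (-1.64), JUNB (-0.31), ATF3 (-0.43), EGR1 (-3.49) and IER3 (-0.92) were lower in shARNT. The SE of the FOS difference was 0.190 (adjusted p = 1.81e-07), and the SE of the ATF3 difference was 0.136 (adjusted p = 0.00809). Without shARNT replicate 1 the ATF3 difference was -0.26, and with library size alone it was -0.24 (adjusted p = 0.12). With library size alone the FOSL2 difference was 0.52 and the JUNB difference was -0.12. FOSB did not pass, at a difference of -0.10 (SE 0.294, adjusted p = 0.764), which was 0.03 without shBMAL1 replicate 3 and does not show that the depletions acted alike on it.

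Levels were compared between genes per transcript length, as TPM, in which length-corrected counts sum to the same total in each library, over the 20612 genes with a length. In shControl the order of mean TPM was JUN (129), JUNB (122), IER3 (76.9), JUND (41.4), FOSL2 (30.5), IER2 (28.1), ATF3 (12.0), EGR1 (5.99), FOS (3.58) and FOSB (0.326). JUN at 125 to 134 TPM and JUNB at 116 to 125 TPM met at their edges and were not separated by their spread. In shBMAL1, JUN (120 TPM) and JUNB (116 TPM) overlapped, as did FOSL2 (29.0 TPM) and IER2 (27.9 TPM), and so did FOS (5.20 TPM) and EGR1 (4.48 TPM). In shARNT the order was JUNB (113), JUND (73.8), IER2 (61.8), JUN (46.3), IER3 (44), FOSL2 (43.5), ATF3 (14.5), FOS (2.05), FOSB (0.735) and EGR1 (0.476). There JUN, IER3 and FOSL2 overlapped, and JUN stood below JUNB, JUND and IER2 in each library.

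The makeup of the JUN pool therefore differed between groups on the TPM scale. JUN held 44% of the summed TPM of JUN, JUNB and JUND in shControl, 43.1% in shBMAL1 and 19.9% in shARNT. JUND held 14.2%, 15.3% and 31.7%, and JUNB held 41.8%, 41.6% and 48.4%. The 3 summed to 288 to 299 TPM in shControl, 265 to 294 TPM in shBMAL1 and 225 to 238 TPM in shARNT. Per kilobase with TMM-scaled libraries the sums were 113 to 118, 102 to 116 and 73.2 to 78.4. The sum was lowest in shARNT on both scales, but the size of its fall depended on the scaling. JUNB spanned 116 to 125 TPM in shControl and 107 to 119 TPM in shARNT, so in TPM these groups overlapped. The shares and sums follow from the levels given above and carry no separate test.

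The FOS pool was made up mainly of FOSL2 and FOSL1, the gene for the related subunit FRA1. FOSL1, which was not among the 10 genes, rose in both depletions, with 491, 466 and 490 counts in shControl, 1015, 1055 and 1071 in shBMAL1 and 930, 834 and 980 in shARNT. FOSL1 took the first place in the pool from FOSL2 in shBMAL1, with 56.8% of the summed TPM against 38.7% in shControl, and in shARNT it held 47.2%. FOSL2 held 54.3% in shControl, 35.9% in shBMAL1 and 49.6% in shARNT. FOS held 6.36%, 6.44% and 2.36%, and FOSB stayed below 1% in each library. The FOS family sum was 55.3 to 57.2 TPM in shControl, 78.6 to 82.7 TPM in shBMAL1 and 84.9 to 93.2 TPM in shARNT. On a per-kilobase scale with TMM-scaled libraries the sum was also lowest in shControl (21.7 to 22.5), but shBMAL1 (30.4 to 32.5) and shARNT (27.6 to 30.7) changed order, so the order of the depletions depended on the scaling.

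**Figure D4:**
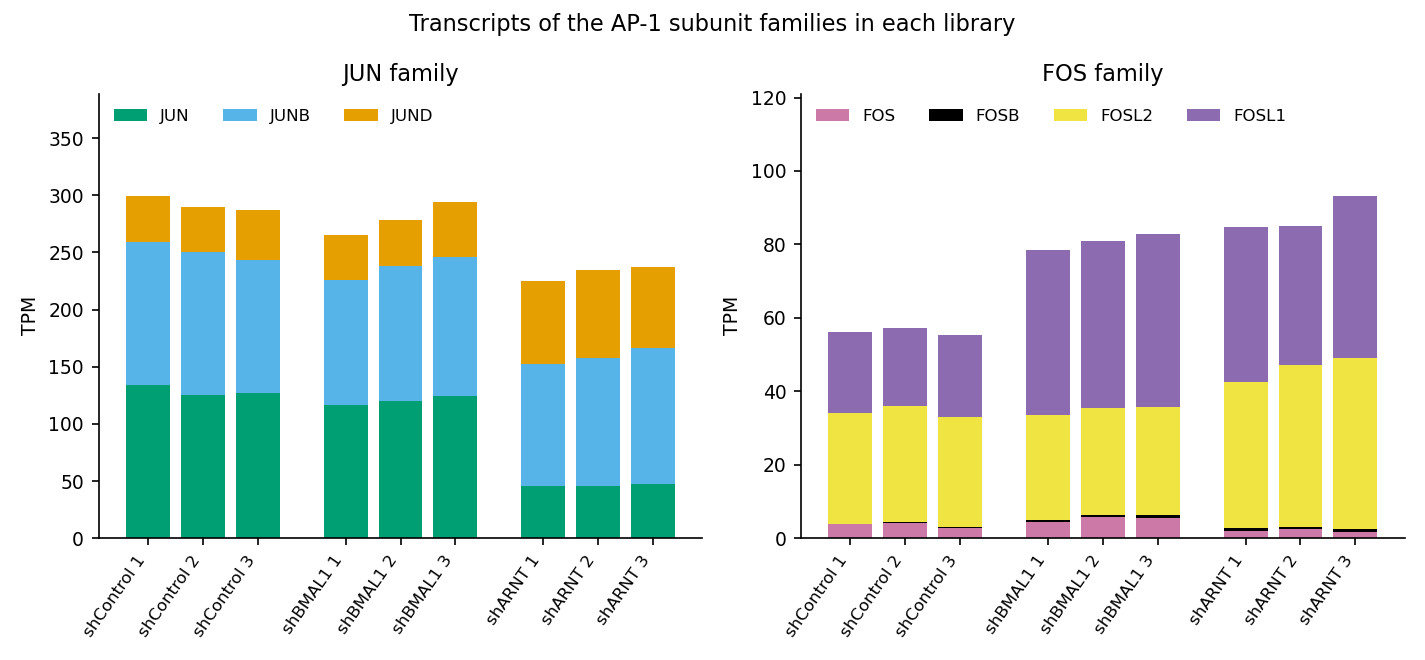
Stacked TPM of the JUN family and of the FOS family in each of the 9 libraries, with 1 bar per library and 1 colour per gene. In shARNT the JUN segment shrinks and the JUND segment grows, and in both depletions the FOSL1 segment grows.

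The members differed in how steady they were between replicates. Within-group SDs of log2 CPM were smallest for JUN (0.0503, at the 13.4 percentile of all tested genes) and largest for FOSB (0.299, 82.9 percentile), EGR1 (0.295, 82.7), ATF3 (0.242, 78.0) and FOS (0.230, 76.7). The median of genes of similar level was 0.0545 for JUN, 0.377 for FOSB, 0.211 for EGR1, 0.123 for ATF3 and 0.217 for FOS. JUN was thus close to genes of its own level, and FOSB was below its median. ATF3 thus stood further from genes of its own level than FOS or FOSB did. The highest EGR1 library in shControl was 1.60 times the lowest, and in shBMAL1 this ratio was 1.07.

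The other genes of the pathway were described from lists chosen with earlier results of these data known, so their counts are descriptions. Of 15 other AP-1 subunits and dimer partners, 13 had counts high enough to be tested. In shARNT 5 were higher and 7 lower, with a median log2 fold change of -0.18, and in shBMAL1 2 were higher and 2 lower, with a median of -0.02. The medians of all tested genes were -0.01 in shARNT and 0 in shBMAL1, and 81.8% and 63.3% of them were called. BATF3, a JUN partner, fell in both depletions (log2 fold change -2.58 in shARNT and -0.44 in shBMAL1). MAFG, a small MAF protein, rose in shARNT (1.60), with -0.12 (not called) in shBMAL1. CREB5, a relative of ATF2, fell in shARNT (-1.05), with -0.10 (not called) in shBMAL1, and ATF2, which dimerises with JUN at CRE sites, fell in both (-0.32 and -0.48). FOSL1 rose by 0.66 in shARNT and by 1.07 in shBMAL1.

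Of 30 other immediate early genes, 26 were tested, and EGR3, EGR4, NR4A3 and ARC were too low. In shARNT 14 were higher and 11 lower (median 0.43), and in shBMAL1 8 were higher and 11 lower (median 0.03). The 14 include DUSP2, with 3, 12 and 2 counts in shControl, 9, 1 and 6 in shBMAL1 and 46, 65 and 56 in shARNT. It entered the test only through its counts in shARNT, the group where it is high, so its call is no separate support. Calls were common, at 81.8% of all tested genes in shARNT and 63.3% in shBMAL1. EGR2, the close relative of EGR1, had 178, 160 and 173 counts in shControl, 201, 218 and 199 in shBMAL1 and 8, 15 and 3 in shARNT. Like EGR1 it was far lower in shARNT, at a log2 difference of -4.53 (SE 0.257, adjusted p = 1.65e-12), but in shBMAL1 its value was 0.23 (adjusted p = 0.254). KLF6, a Krüppel-like factor, stood at 194 CPM in shControl and fell in both depletions, to 86.8 CPM in shBMAL1 and to 26.6 CPM in shARNT. BTG2, an antiproliferative gene, rose in shARNT by 2.56 on the log2 scale, with 0.18 (not called) in shBMAL1. CTGF, a matricellular protein gene, rose in shARNT (1.12) and fell in shBMAL1 (-1.70), whereas NFKBIA, the inhibitor of NF-κB, rose in both (1.13 and 1.58) and SGK1, a serum-responsive kinase, fell in both (-0.68 and -1.25).

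All 20 listed kinases and factors that act upstream of immediate early genes were tested. In shARNT 10 were higher and 8 lower (median 0.11), where 81.8% of all tested genes were called. In shBMAL1 6 were higher and 10 lower (median -0.14), where 63.3% of all tested genes were called. MAPK3, which encodes ERK1, fell in shARNT (-1.04) and rose slightly in shBMAL1 (0.15). MAPK14, which encodes p38α, did the opposite (0.91 and -0.34). RPS6KA5, a kinase downstream of ERK and p38, fell in shARNT (-0.87) and rose in shBMAL1 (0.83). MKL1, a coactivator of SRF, fell in both (-0.55 and -0.70), and MAPK8, which encodes JNK1, fell in shBMAL1 (-0.68), with -0.11 (not called) in shARNT.

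Of 20 textbook AP-1 target genes 17 were tested, and MMP3, MMP13 and IL11 were too low. In shARNT 3 were higher and 14 lower (median -1.32), and in shBMAL1 10 were higher and 4 lower (median 0.25). Calls covered 81.8% of all tested genes in shARNT and 63.3% in shBMAL1. MMP1 and MMP10 are among the lower in shARNT and the higher in shBMAL1, with all counts under 10 outside shBMAL1. Only in shBMAL1 were their counts high enough for the test. TGFB1, a cytokine gene, fell in both depletions, with 718 CPM in shControl, 499 CPM in shBMAL1 and 55.9 CPM in shARNT. GJA1, a gap junction gene, fell in shARNT (-2.86) and rose in shBMAL1 (1.21), and CD44, an adhesion receptor gene, likewise fell in shARNT (-0.96) and rose in shBMAL1 (1.45). MMP9, a matrix protease gene, fell in shARNT (-2.74), with 0.24 (not called) in shBMAL1. The cytokine genes IL8 (1.08 and 1.79) and IL6 (1.27 and 1.66) rose in both shARNT and shBMAL1.

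Of the 12 heat shock genes, a stress programme listed for comparison, 10 were higher and 2 lower in shARNT (median 0.51). In shBMAL1 7 were higher and 4 lower (median 0.16). Among all tested genes 81.8% were called in shARNT and 63.3% in shBMAL1. HSPH1, a chaperone gene, rose by 1.46 and 0.32 in shARNT and shBMAL1, and HSPE1, a mitochondrial chaperonin gene, by 0.76 and 0.25. HSPA1A (1.27 and 0.21) and HSPA1B (1.27 and 0.18) also rose in both, but these are near-identical copies whose reads the counting could have split, so their separate values are uncertain. HSPA6 fell in shARNT (-1.05) and rose in shBMAL1 (0.52).

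**Figure D5:**
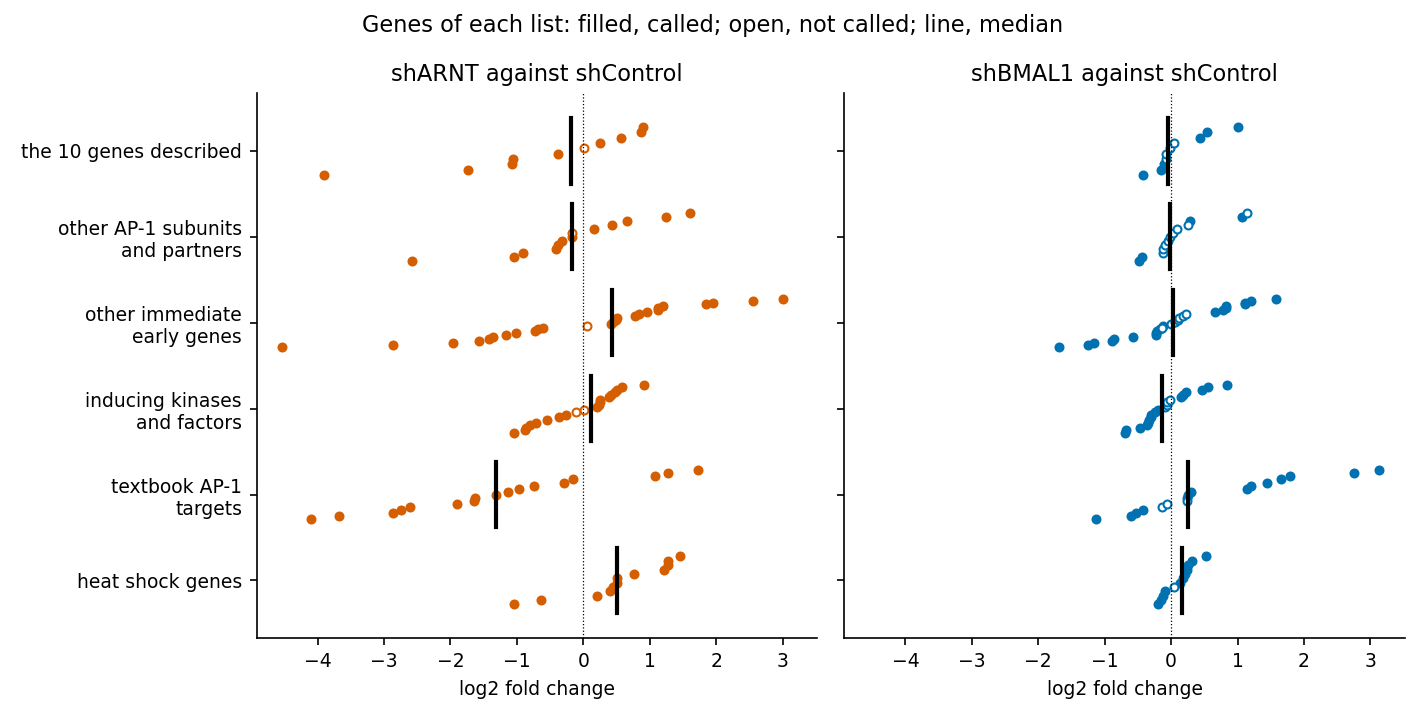
Log2 fold change of every tested gene of each list in shARNT and in shBMAL1 against shControl, with filled points for called genes, open points for genes not called and a vertical line at each list's median. The textbook AP-1 targets have a median of -1.32 in shARNT and 0.25 in shBMAL1.

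The genes whose profile over the 9 libraries was most like that of a member were found by the root mean square difference of centred log2 CPM. For JUN they were SH3BGRL (0.0492), NPC2 (0.0577) and PXDN (0.0598), and for IER3 they were CYB5R3 (0.0738), COMMD6 (0.0766) and KCTD15 (0.0793). For FOS the closest were OARD1 (0.143), TMEM14A (0.159) and RGS14 (0.161). Like FOS they were lowest in shARNT and highest in shBMAL1, which follows from choosing them by profile and is no separate result. The nearest profiles to FOS were thus less close than those to JUN and IER3, but this measure includes the spread between replicates. The within-group SD of log2 CPM was 0.23 for FOS, 0.0503 for JUN and 0.112 for IER3.

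By GENCODE 44 on GRCh37, JUN lies at chr1:59242517-59249720 on the minus strand, JUNB at chr19:12902300-12904129 on the plus strand and JUND at chr19:18390504-18392432 on the minus strand, each with 1 exon. FOS lies at chr14:75745529-75748933, FOSB at chr19:45971253-45978437, FOSL2 at chr2:28615315-28640184, ATF3 at chr1:212738676-212794119, EGR1 at chr5:137801168-137804992 and IER2 at chr19:13261225-13265725, all on the plus strand, and IER3 lies at chr6:30710976-30712325 on the minus strand. FOSB overlaps ERCC1 on the opposite strand, JUNB overlaps HOOK2, FOSL2 overlaps FOSL2-AS1, ATF3 overlaps RN7SL512P and IER3 overlaps IER3-AS1 and HCG20. Whether counting used strand was not given in the sources used here, so reads of these pairs may not have been kept apart and the values of FOSB, JUNB, FOSL2, ATF3 and IER3 are uncertain to that extent. IER2 also overlaps annotated transcripts on the opposite strand, and FOSL2 overlaps 1 on its own strand, which counting by strand would not keep apart.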

How the data were processed

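RNA of 9 A498 libraries, 3 per group, was sequenced as paired ends on a BGISEQ-500. According to the methods the authors aligned reads to GRCh37 in SeqMan NGen 17 and took gene counts from ArrayStar 17, whereas the submitters' processing notes list hg38, STAR and DESeq2. Annotation release, strand use and counting of mates were not given in the sources used here. The deposited values were expected counts per gene without normalization, where 0.05 stood for no reads and was set to 0. The values were rounded, and 43 names held by more than 1 row were summed. Library totals were 35269851 to 36099075.

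Groups came from the sample titles. edgeR 4.0.16 in R 4.3.3 was run on 1 fit of all 9 libraries (TMM, filterByExpr, quasi-likelihood F-test, 15551 genes), tested on simulated data beforehand, and a gene counted as called where its p, adjusted after Benjamini and Hochberg over all tested genes, was under 0.1. CPM used TMM-scaled totals, and TPM used GENCODE 44 canonical transcript lengths on GRCh37. Alternatives were DESeq2 1.42.0, other scalings, no filter, 6 libraries, halved counts, a minimum fold change of 1.5, a replicate block and leaving out each library. The members and lists were chosen with earlier results of these data known. Named list genes were, per list and depletion, the 3 called genes with the largest absolute log2 fold change at a mean of at least 1 CPM. For FOS, JUN and IER3, the 3 genes of most similar profile were named.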

Additional observations from a re-analysis of the deposited data

Results flagged for a closer look

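The values below differed between the 2 depletions by the direct edgeR contrast of shARNT against shBMAL1, and each is the log2 fold change of that contrast. Since 81.2% of all tested genes passed in it, a difference was common. Among the 10 genes, the values were -1.60 for FOS, 0.33 for FOSL2, -1.64 for JUN, -0.31 for JUNB, 0.53 for JUND, -0.43 for ATF3, -3.49 for EGR1, 0.89 for IER2 and -0.92 for IER3.

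Among other AP-1 subunits and partners they were -2.14 for BATF3, 1.72 for MAFG, -0.95 for CREB5, -0.41 for FOSL1 and 0.16 for ATF2. Among other immediate early genes they were -4.76 for EGR2, -1.71 for KLF6, 2.38 for BTG2, 2.81 for CTGF, -0.45 for NFKBIA and 0.57 for SGK1. Among upstream kinases and factors they were -1.19 for MAPK3, 1.25 for MAPK14, -1.71 for RPS6KA5, 0.15 for MKL1 and 0.57 for MAPK8. Among textbook AP-1 targets they were -3.16 for TGFB1, -4.07 for GJA1, -2.98 for MMP9, -0.71 for IL8, -0.39 for IL6 and -2.41 for CD44. Among heat shock genes they were 1.14 for HSPH1, 1.06 for HSPA1A, 1.09 for HSPA1B, -1.57 for HSPA6 and 0.51 for HSPE1. FOS, CTGF, MAPK3, MAPK14, RPS6KA5, GJA1, CD44 and HSPA6 were called in opposite directions in the depletions.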

How the results depend on the processing

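With library size alone, the all-gene median shifted as given above and 60.5% of calls were higher in shARNT, against 49.6% with TMM (55.9% against 50.3% in shBMAL1, and 58.6% against 49.4% between the depletions). In shBMAL1, JUN (-0.06, adjusted p = 0.288) and IER3 (-0.10, adjusted p = 0.248) then lost their calls and IER2 reversed to 0.03, and between the depletions FOSB reversed to 0.09 and ATF3 (-0.24) lost its call. DESeq2 did not call IER3 in shBMAL1 (adjusted p = 0.122), and with only the 6 libraries compared ATF3 in shARNT was 0.

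Under a minimum fold change of 1.5, which by construction calls fewer genes, the calls in shARNT, shBMAL1 and between the depletions were 5, 0 and 5 members, 4, 1 and 4 other AP-1 subunits and partners, 6, 1 and 5 kinases and factors, and 7, 0 and 5 heat shock genes. Of all tested genes, 44.8%, 13.6% and 43.9% were called in these contrasts. There were also 11 other immediate early genes in shBMAL1 and 17 between the depletions, and 7 textbook AP-1 targets in shBMAL1. These 2 lists were not changed mainly in shBMAL1. In shARNT, 19 of 26 other immediate early genes and 15 of 17 targets had an unadjusted p under 0.05 by edgeR (glmTreat). Between the depletions 12 of 17 targets did. Of the 0 members and 0 heat shock genes so called by edgeR (glmTreat) in shBMAL1, 1 and 0 had an unadjusted p under 0.05, and DESeq2 without a minimum fold called 5 and 11.

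With single libraries left out, members called numbered 3 to 6 in shBMAL1 and 9 to 9 in both other contrasts. Signs turned for ATF3 in shARNT (range -0.10 to 0.17, with -0.04, -0.09 and -0.06 between), for IER2 (-0.11 to 0.10, and 0) and JUND (-0.06 to 0.11) in shBMAL1, and for FOSB between the depletions (-0.17 to 0.03), none of them called. The call of IER3 in shBMAL1 was lost in 7 of 14 alternatives and that of JUN in 4 of 14. EGR1, FOS, JUN, IER2 and IER3 kept their calls and direction in shARNT in all 14.

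The replicate number as a block changed no call, and members called stayed at 9, 6 and 9. Same-numbered libraries correlated at -0.041 to 0.075 in their deviations, and not every library correlated best with its own number, so the numbers were not taken to pair the samples. Causes were not tested. FOSB (12 to 39 counts) and, in shARNT, EGR1 (15 to 26 counts) rest on few counts.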

Other observations

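Several immediate early genes and AP-1 targets outside the naming rule were chosen here after their values were seen. MMP1 and MMP10, matrix proteases often used as AP-1 reporters, were at low counts, highest in shBMAL1. MMP1 had 5, 8 and 7 counts in shControl, 49, 49 and 44 in shBMAL1 and 0, 1 and 0 in shARNT. MMP10 had 3, 5 and 9 counts in shControl, 50, 46 and 61 in shBMAL1 and 0, 3 and 0 in shARNT. Outside shBMAL1 all counts of both genes were under 10, so no test is given here, although both are in the counts of called textbook AP-1 targets.

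DUSP1, the phosphatase that turns off MAP kinases and is itself an immediate early gene, had 1797, 1424 and 1460 counts in shControl, 1749, 1657 and 1779 in shBMAL1 and 580, 576 and 738 in shARNT. Its log2 fold change was -1.56 in shARNT (SE 0.0911, adjusted p = 2.53e-12) and 0.10 in shBMAL1 (adjusted p = 0.33). MYC, a growth-regulating factor, had a log2 fold change of -1.02 in shARNT (SE 0.044, adjusted p = 1.92e-14) and -0.12 in shBMAL1 (adjusted p = 0.0242). DUSP1 and MYC both fell in shARNT, but they do not stand for their list. Of its 26 tested genes, 14 were higher and 11 lower in shARNT, where 81.8% of all tested genes were called.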
